A study of Mus musculus with 4 samples.

Results

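The genes described here are 10 transcriptional regulators and response genes of muscle formation and denervation: Myog, Myod1, Myf5, Myf6, Mef2c, Runx1, Hdac4, Dach2, Gadd45a, and Ncam1. They were taken by gene name from the 22252 gene names of the gastrocnemius count data, and each of the 10 was present. The gastrocnemius, a calf muscle made mostly of fast fibers, came from 7-week-old male C57BL/6J mice in 4 groups. Lean GRfl/fl mice had wild-type leptin alleles and Nr3c1, the glucocorticoid receptor (GR) gene, floxed on both chromosomes. Lean GR-mKO mice carried the same floxed alleles and in addition a Cre transgene driven by the Acta1 promoter, which is active in myofibers, so that GR was left intact in the other cells of the muscle. ob/ob GRfl/fl and ob/ob GR-mKO mice had the same 2 genotypes on a background lacking functional leptin, which makes mice obese. Each group was represented by 1 library, made from the combined RNA of 3 mice. Differences could therefore not be set against the variation between mice, no P value is given, and every interval below is a 95% interval that covers counting error alone.

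Myod1, Myf5, Myog, and Myf6 are the myogenic regulatory factors, basic helix-loop-helix proteins that bind E-boxes (CANNTG) with E proteins and turn on muscle genes. Myod1 and Myf5 commit cells to the myogenic lineage, Myog drives their differentiation, and Myf6 (MRF4) is the family member that predominates in adult fibers. In innervated fibers, electrical activity keeps Myog low. After denervation, Hdac4 accumulates and represses Dach2, a repressor of Myog, and Myog then turns on acetylcholine receptor subunits and atrophy genes. Mef2c is a MADS-box partner of the myogenic factors and a target of class IIa deacetylases. Runx1, Gadd45a, and the adhesion molecule Ncam1 are also known to be induced when a muscle loses its nerve.

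Promoter sequences from RefSeq (GRCm38.p6) are shown for 2 of the genes that were higher in GR-mKO libraries in both backgrounds. They are the 250 bases before the transcription start, 5′ to 3′ on the strand of the gene, with E-boxes in capitals. A shorter stretch of Dach2, which was lower in both, is shown with the half-site of the GR response element (AGAACA) in capitals.
Myog: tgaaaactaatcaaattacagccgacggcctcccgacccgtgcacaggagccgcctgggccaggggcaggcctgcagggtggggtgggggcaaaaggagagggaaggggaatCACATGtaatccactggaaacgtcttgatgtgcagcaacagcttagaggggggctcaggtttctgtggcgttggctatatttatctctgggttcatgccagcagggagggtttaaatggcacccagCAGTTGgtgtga
Gadd45a: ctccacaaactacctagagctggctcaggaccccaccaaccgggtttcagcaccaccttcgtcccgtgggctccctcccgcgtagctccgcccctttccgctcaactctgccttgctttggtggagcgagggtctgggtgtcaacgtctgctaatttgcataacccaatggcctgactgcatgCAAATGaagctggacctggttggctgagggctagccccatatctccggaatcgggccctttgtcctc
Dach2: gccagcgcgcttcagacttgAGAACAgttc
The Myog stretch is chr1:134289754-134290003 on the plus strand and holds E-boxes whose first bases lie at -138 and -12 from the start. The Gadd45a stretch is chr6:67037408-67037657 on the minus strand, with 1 E-box at -67. The Dach2 stretch of 30 bases is chrX:113298276-113298305 on the plus strand, downstream of the second of its annotated starts, and its AGAACA begins at position 41. Windows from 250 bases before to 50 bases after a start were found for 7 of the 10 genes, 11 windows in all, and none for Myod1, Myf6, or Ncam1. Both motifs were searched on both strands. CANNTG was present in 6 of the 11 windows and in 72.3% of 32851 promoters, and AGAACA in 3 of the 11 and in 19.0% of all. The other 2 windows with AGAACA belong to Mef2c, whose genotype ratio was -0.03 in lean and 0.23 in ob/ob mice. Among the other genes higher in GR-mKO libraries in both backgrounds, the Hdac4 window and the second Runx1 window held no CANNTG. The window of the first Dach2 start held 1, at -71. A match is a run of letters and does not show binding.

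The libraries held between 19897754 and 20959781 expected counts, and 3 counts corresponded to between 0.143 and 0.151 CPM, in which each library is scaled to the same total. Nr3c1 was at 125 CPM in lean GRfl/fl, 67.0 in lean GR-mKO, 102 in ob/ob GRfl/fl, and 39.1 in ob/ob GR-mKO mice, a count that also covers exons outside the deleted part and cells without Cre. Fkbp5, a GR target, was at 88.8, 22.8, 106, and 26.1 CPM in the same order. Levels are given in this order of libraries throughout. The 7 skeletal muscle markers summed to between 61854 and 69756 CPM, with Acta1 (skeletal actin) the most abundant in each library. Of the 7, Ttn was at least 2-fold higher in ob/ob than in lean mice of both genotypes.

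Myog was the member of the set with the largest difference in the upward direction between genotypes. Its level was 6.17 CPM (5.14 to 7.33) in lean GRfl/fl, 13.6 CPM (12.0 to 15.3) in lean GR-mKO, 7.52 CPM (6.41 to 8.81) in ob/ob GRfl/fl, and 21.1 CPM (19.2 to 23.2) in ob/ob GR-mKO mice. Both GR-mKO libraries lay above both GRfl/fl libraries, and their intervals did not overlap. The level was 2.21-fold higher in GR-mKO than in GRfl/fl mice in the lean background (log2 1.14, interval 0.83 to 1.46). It was 2.80-fold higher in the ob/ob background (log2 1.49, interval 1.22 to 1.76). With obesity, Myog differed by a log2 ratio of 0.63 (0.41 to 0.85) in the GR-mKO genotype. In GRfl/fl mice the ratio was 0.29, with an interval that included 0 (-0.06 to 0.64), and 0.40 (0.06 to 0.75) with edgeR's TMM scaling factors. The 2 ratios differed by 0.34 (-0.06 to 0.74), an interval that included 0. The gene is at chr1:134289989-134292548 on GRCm38, has 3 exons, and overlaps no other protein-coding gene.

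**Figure D1:**
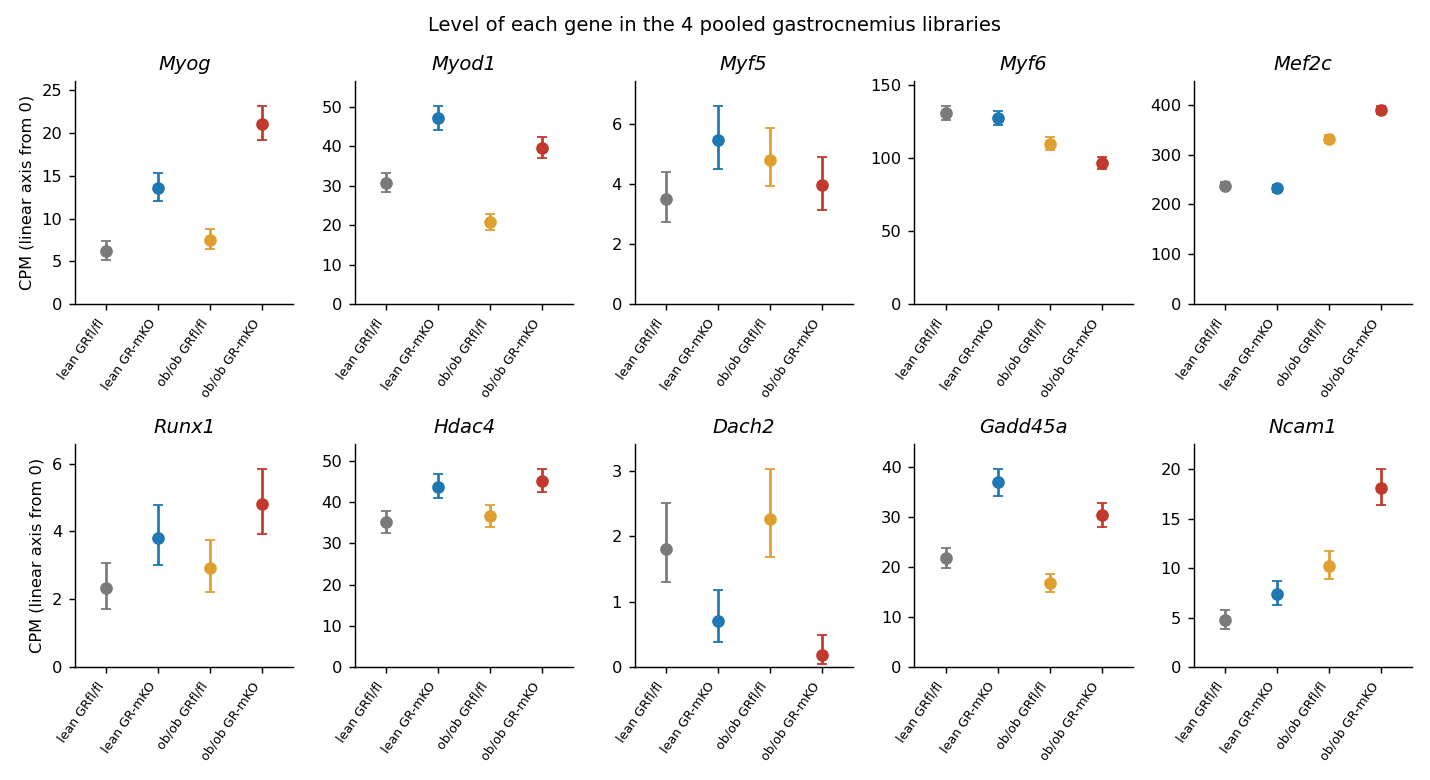
Level of each of the 10 genes in CPM on linear axes from 0, each with its own range, in the 4 pooled libraries. Points are 1 library of 3 pooled mice and bars are 95% Poisson intervals. The points of Myog, Myod1, Runx1, Hdac4, and Gadd45a lay higher in both GR-mKO libraries than in either GRfl/fl library, and that of Dach2 lay lower.

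Myod1, which acts upstream of Myog in differentiation, differed in the same direction between genotypes and in the other direction with obesity. It was at 30.7, 47.1, 20.8, and 39.6 CPM. The library of ob/ob GR-mKO mice thus lay above that of lean GRfl/fl mice. The log2 ratio between GR-mKO and GRfl/fl mice was 0.62 (0.47 to 0.77) in the lean and 0.93 (0.76 to 1.10) in the ob/ob background. For ob/ob against lean mice it was -0.56 (-0.74 to -0.38) in GRfl/fl and -0.25 (-0.39 to -0.11) in GR-mKO mice. The count ratio of Myog to Myod1 was 0.201 (0.165 to 0.243), 0.289 (0.252 to 0.331), 0.362 (0.300 to 0.436), and 0.533 (0.474 to 0.599). It was thus higher in each GR-mKO library than in the GRfl/fl library of its background, and higher in ob/ob than in lean mice of the same genotype.

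Myf5 and Myf6, which lie next to each other on chromosome 10, did not share this pattern. Myf5, a factor that quiescent satellite cells express, was low in every library, at 3.52, 5.48, 4.82, and 3.96 CPM. Its log2 ratio between genotypes was 0.64 (0.20 to 1.09) in lean mice and -0.28 in ob/ob mice, where the interval included 0 (-0.72 to 0.15). Myf6 was the most abundant of the 4 factors, at 131, 127, 110.0, and 96.7 CPM. Its level was close in the 2 lean libraries, with a ratio of -0.04 (-0.12 to 0.04), and lower in GR-mKO than in GRfl/fl mice in the ob/ob background, with a ratio of -0.19 (-0.27 to -0.10). Its ratio of ob/ob to lean mice was -0.25 (-0.33 to -0.17) in GRfl/fl and -0.40 (-0.48 to -0.31) in GR-mKO mice.

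Levels of different genes were compared as CPM per kb of the transcript listed in the files, which need not be the main isoform in muscle. On this scale Myf6 made up 82.3%, 73.1%, 82.5%, and 67.3% of the sum of the 4 myogenic regulatory factors. Myod1 made up 13.1%, 18.3%, 10.6%, and 18.7%, and Myog 3.28%, 6.60%, 4.76%, and 12.4%. The share of Myf5 stayed between 1.34% and 2.19%. The sum itself was 126, 138, 106, and 114 CPM per kb. Between genotypes, the makeup of the family therefore differed more than its total. Both GR-mKO libraries had larger shares of Myod1 and Myog and a smaller share of Myf6, although the level of Myf6 in the 2 lean libraries was close. Between lean and ob/ob GRfl/fl mice, the share of Myf6 was close (82.3% and 82.5%), whereas the sum was 126 and 106 CPM per kb.

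**Figure D2:**
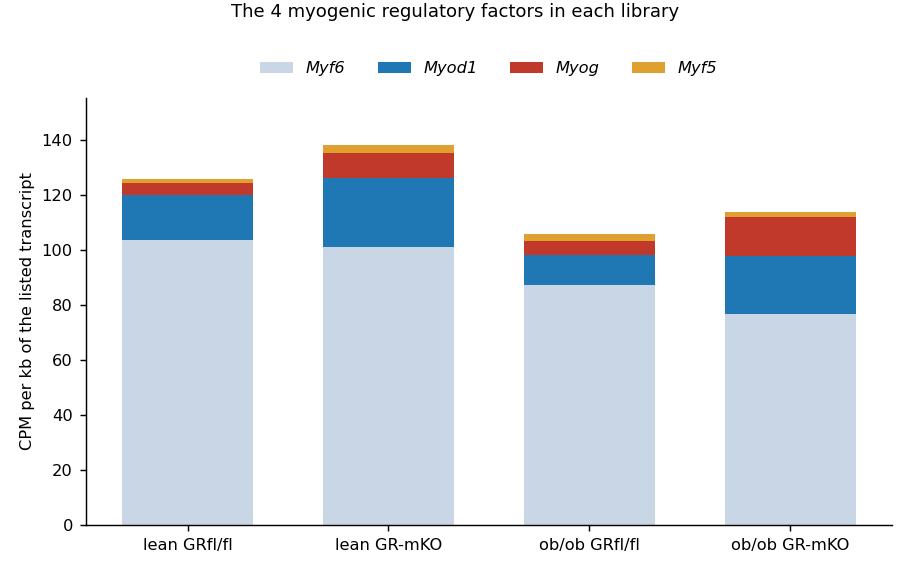
Stacked levels of Myf6, Myod1, Myog, and Myf5 in CPM per kb of the listed transcript, 1 bar per pooled library, on an axis from 0. Myog took 12.4% of the sum in ob/ob GR-mKO mice and 3.28% in lean GRfl/fl mice.

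Dach2, the repressor of Myog, had the largest ratio of the set and the fewest counts. Its expected counts were 37.6, 14.0, 47.6, and 3.87, which corresponded to 1.81 CPM (1.30 to 2.51), 0.705 CPM (0.385 to 1.18), 2.27 CPM (1.69 to 3.04), and 0.185 CPM (0.0520 to 0.489). Both GR-mKO libraries lay below both GRfl/fl libraries, without overlap of the intervals. Dach2 was 2.57-fold lower in GR-mKO than in GRfl/fl mice in the lean background (interval 1.38 to 5.20). In the ob/ob background it was 12.3-fold lower (4.39 to 45.8), a ratio that rests on about 4 counts in the ob/ob GR-mKO library. Because no library reached 50 counts, Dach2 was left out of the counts of genes past a fold threshold given below. The count ratio of Myog to Dach2 was 3.40 (2.33 to 4.97) in lean and 3.31 (2.37 to 4.65) in ob/ob GRfl/fl mice. In GR-mKO mice it was 19.3 (11.3 to 35.9) in the lean and 114 (42.9 to 407) in the ob/ob background.

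Hdac4, the deacetylase that represses Dach2 after denervation, differed by much less. It was at 35.1, 43.7, 36.6, and 45.2 CPM. The ratio between genotypes was 0.32 (0.17 to 0.46) in lean and 0.31 (0.17 to 0.44) in ob/ob mice, or 1.24-fold in both. With obesity, the Hdac4 ratio was 0.06 (-0.09 to 0.21) in GRfl/fl and 0.05 (-0.09 to 0.18) in GR-mKO mice, and both intervals included 0. This depended on the scaling, since with TMM factors the Hdac4 ratios were 0.17 (0.02 to 0.32) and 0.25 (0.12 to 0.39). The level measured here is of RNA, whereas Hdac4 is also known to be controlled through its location in the cell. Its relatives on a list of 8 MEF2 factors and class IIa deacetylases, with Dach1 and the kinase Sik1, included no gene with a 2-fold difference in any comparison, of 7 with enough counts. Hdac5 was at 44.4, 32.1, 37.3, and 30.5 CPM, and Dach1, the paralog of Dach2, at 7.20, 6.27, 6.51, and 7.16 CPM. The level of Dach1 thus stayed within a narrow range where that of Dach2 did not.

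Mef2c differed mainly with obesity. It was at 238, 232, 331, and 389 CPM, so that both ob/ob libraries lay above both lean ones. The log2 ratio between ob/ob and lean mice was 0.48 (0.42 to 0.53) in GRfl/fl and 0.74 (0.69 to 0.79) in GR-mKO mice. Between genotypes it was -0.03 (-0.09 to 0.03) in lean and 0.23 (0.19 to 0.28) in ob/ob mice. Mef2d, the most abundant of its relatives by CPM, was at 180, 199, 242, and 270 CPM, and Mef2a at 121, 114, 133, and 137 CPM. The 27 protein-coding transcripts annotated for Mef2c were not told apart by these gene-level counts. The listed transcripts of Mef2c, Mef2d, and Mef2a are long (6217, 5401, and 5538 bp), and the part of transcript length in their ob/ob ratios was not tested.

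Runx1, Gadd45a, and Ncam1, response genes of the denervated fiber, were higher in GR-mKO than in GRfl/fl mice in both backgrounds. Gadd45a, a stress-induced protein that acts downstream of Hdac4 in denervated muscle, was at 21.8, 36.9, 16.8, and 30.3 CPM. Its ratio between genotypes was 0.76 (0.59 to 0.93) in lean and 0.85 (0.66 to 1.04) in ob/ob mice. Between ob/ob and lean mice it was -0.37 (-0.58 to -0.17) in GRfl/fl and -0.28 (-0.44 to -0.13) in GR-mKO mice, the same directions as for Myod1. Runx1, which limits atrophy in denervated muscle, was low, at 2.34, 3.82, 2.91, and 4.81 CPM. The ratio between genotypes was 0.71 (0.18 to 1.28) in lean and 0.73 (0.26 to 1.21) in ob/ob mice, with wide intervals because no library held more than about 101 counts. Its ratios of ob/ob to lean mice were 0.32 (-0.24 to 0.91) in GRfl/fl and 0.33 (-0.11 to 0.78) in GR-mKO mice, and the latter became 0.54 (0.10 to 0.99) with TMM factors.

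Ncam1, a cell adhesion molecule found at the synapse of innervated fibers and along the whole fiber after denervation, differed with both factors. It was at 4.75 CPM (3.88 to 5.81), 7.41 CPM (6.29 to 8.74), 10.2 CPM (8.93 to 11.7), and 18.1 CPM (16.4 to 20.1). The order of the 4 libraries was complete, with no overlap of neighboring intervals. Ncam1 was 2.15-fold higher in ob/ob than in lean GRfl/fl mice (log2 1.11, interval 0.75 to 1.46) and 2.45-fold higher in ob/ob than in lean GR-mKO mice (1.29, 1.01 to 1.57). Between genotypes the log2 ratio was 0.64 (0.26 to 1.02) in lean and 0.82 (0.58 to 1.07) in ob/ob mice. Ncam1 is also made by satellite cells, Schwann cells, and nerve terminals. The 10 Schwann cell markers summed to 511, 635, 709, and 612 CPM, and no marker of the list was at 0. The 8 satellite cell markers summed to 130, 156, 151, and 149 CPM, with Pax7 at 4.75, 7.45, 9.62, and 8.02 CPM and Pax3 at 0 in 3 of the 4 libraries. Pax7 was at least 2-fold higher in ob/ob than in lean GRfl/fl mice, and Calcr lower in ob/ob than in lean GR-mKO mice. Both sums were higher in lean GR-mKO and in ob/ob GRfl/fl mice than in lean GRfl/fl mice, as Ncam1 was. In ob/ob mice, Ncam1 was higher in GR-mKO than in GRfl/fl mice and the Schwann cell sum was lower. The satellite cell sums of these 2 libraries were close (151 in GRfl/fl and 149 CPM in GR-mKO mice), and 3 of 6 markers with enough counts had a ratio above 0. The 8 slow fiber markers summed to 488, 650, 1086, and 1554 CPM, the same order of libraries as for Ncam1, and the part of these 3 cell or fiber types in the Ncam1 and Mef2c results was not tested. In whole muscle, fewer cells of a type and less RNA per cell cannot be told apart.

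Between genotypes, most genes of the set were higher in GR-mKO mice in both backgrounds. The set was chosen with earlier results of these data known, so its counts and medians here and below are a description only. Each library enters 2 of the 4 comparisons, so those of the 2 factors are not independent of each other, whereas the 2 genotype comparisons share no library. A gene entered the count when either of its libraries reached 50 expected counts, which 9 of the 10 genes did in each comparison. Between GR-mKO and GRfl/fl lean mice, 1 of the 9 (Myog) was at least 2-fold higher, against 2.19% of 11668 genes, and 0 were at least 2-fold lower, against 2.09%. In ob/ob mice, 1 (again Myog) was at least 2-fold higher, against 2.08% of 11396 genes, and 0 were lower, against 2.87%. At a threshold of 1.5-fold, 6 of the 9 were higher in lean GR-mKO mice (Myog, Myod1, Myf5, Runx1, Gadd45a, and Ncam1), against 6.16% of genes, and 5 were higher in ob/ob GR-mKO mice (the same without Myf5), against 5.34%. None was 1.5-fold lower, against 4.62% of genes in lean and 8.99% in ob/ob mice. Dach2, which had too few counts for this, was the 1 gene of the 10 past 2-fold in the downward direction.

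The median log2 ratio between genotypes over the 9 genes was 0.64 in the lean and 0.73 in the ob/ob background, against 0.04 and -0.04 over all genes tested. Intervals lay above 0 for 6 of the 10 genes in both backgrounds (Myog, Myod1, Runx1, Hdac4, Gadd45a, and Ncam1) and below 0 in both for Dach2. The share of all genes with intervals on 1 side of 0 in both backgrounds was not obtained. These intervals cover counting error alone and can exclude 0 at small ratios, so this count is a description only. For the counts past a fold threshold, the share of all genes past it is the background, and no test of the set as a whole was made.

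**Figure D3:**
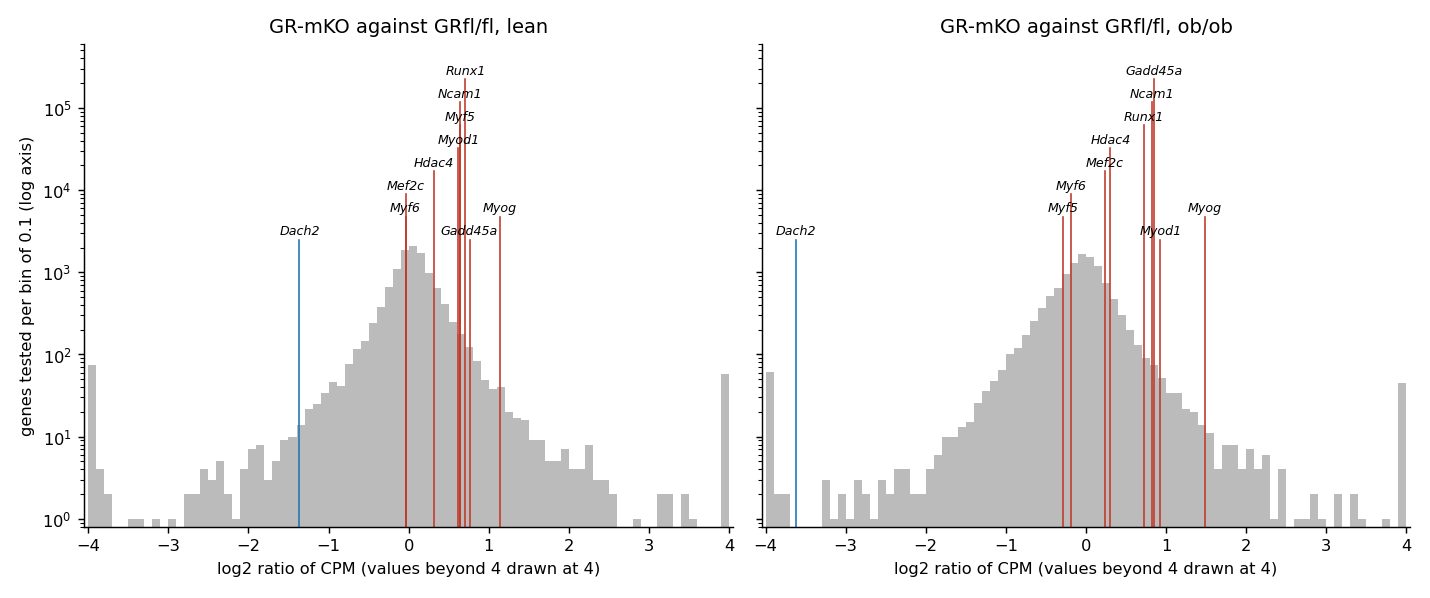
Log2 ratios of CPM between GR-mKO and GRfl/fl mice for all genes that reached 50 counts in either library (grey, bins of 0.1, number of genes on a log axis), in lean (left) and ob/ob mice (right). Red lines mark the 9 genes of the set with enough counts and the blue line Dach2, and the heights of the lines only separate the names. Myog lay at 1.14 and 1.49, and the medians of all genes at 0.04 and -0.04.

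Between ob/ob and lean mice, 1 gene of the 9 (Ncam1) was at least 2-fold higher in GRfl/fl mice, against 2.43% of 11601 genes, and 0 were lower, against 4.13%. In GR-mKO mice, 1 (again Ncam1) was at least 2-fold higher, against 1.97% of 11590 genes, and 0 were lower, against 8.08%. With TMM scaling the shares of all genes in GR-mKO mice became 3.16% higher and 4.95% lower, and the count of the set stayed at 1. At 1.5-fold, 1 gene was higher in GRfl/fl mice (Ncam1), against 5.88%, and 3 in GR-mKO mice (Myog, Mef2c, and Ncam1), against 5.41%. None was 1.5-fold lower, against 12.9% of genes in GRfl/fl and 21.1% in GR-mKO mice. The median over the 9 genes was 0.29 in GRfl/fl and 0.05 in GR-mKO mice, against -0.11 and -0.20 over all genes. The median of all genes thus lay below 0, and it moved to 0.00 and 0.01 with TMM scaling. Myod1, Myf6, and Gadd45a were lower in ob/ob mice of both genotypes, with intervals below 0, and kept that direction under each of the 5 other scalings. In GR-mKO mice, however, the intervals of Myod1 and Gadd45a included 0 with TMM factors (-0.18 to 0.09 and -0.23 to 0.08). Relative to the median of all genes their ratios in GR-mKO mice were -0.05 for Myod1, -0.20 for Myf6, and -0.08 for Gadd45a.

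**Figure D4:**
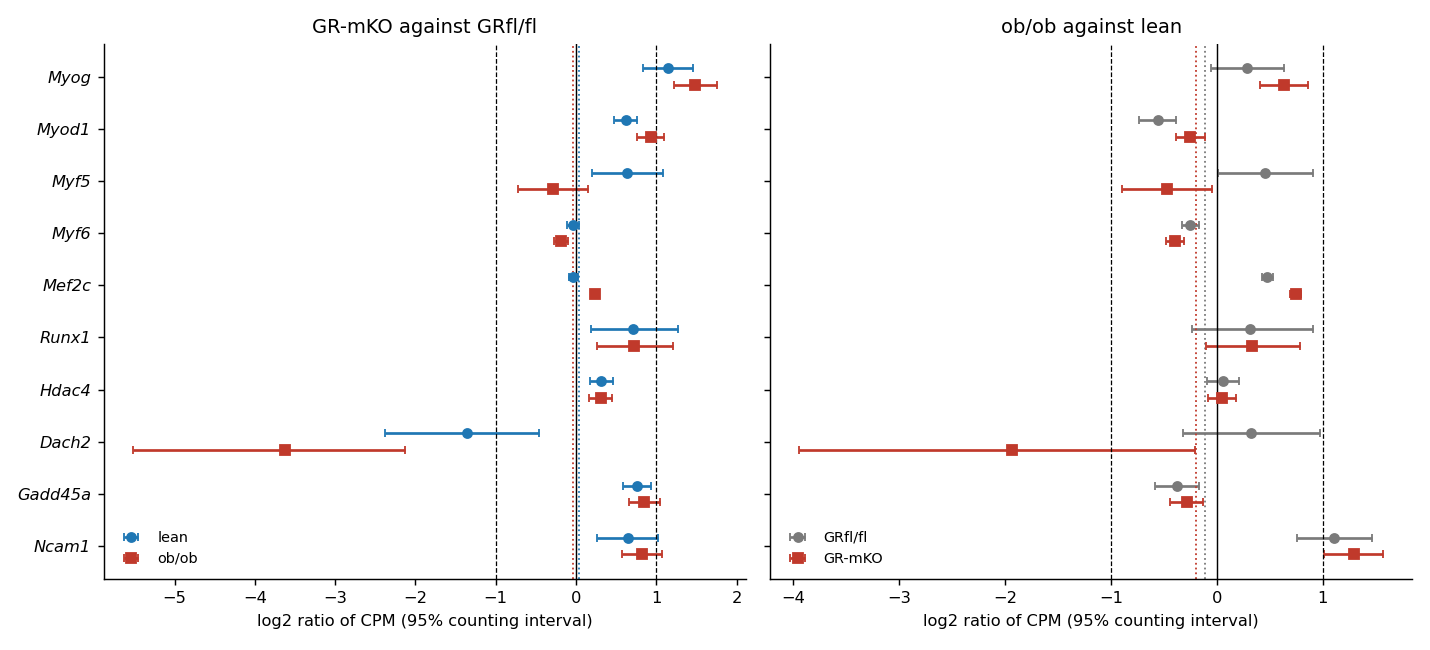
Log2 ratios of CPM for the 10 genes with 95% counting intervals, between GR-mKO and GRfl/fl mice (left, lean in blue and ob/ob in red) and between ob/ob and lean mice (right, GRfl/fl in grey and GR-mKO in red). Dashed lines mark 2-fold differences and dotted lines the medians of all genes tested. Among the genes with enough counts, Myog passed 2-fold on the left and Ncam1 on the right. Dach2, with too few counts, lay past the lower dashed line on the left (-1.36 and -3.62). On the right it did so in GR-mKO mice (-1.93).

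In order of CPM per kb, Myf6, Mef2c, Gadd45a, and Myod1 took the first 4 places in every library. Gadd45a and Myod1 did not differ beyond their counting intervals in lean GRfl/fl mice (17.8 and 16.5 CPM per kb). Myog and Hdac4 followed in 3 of the libraries, with overlapping intervals in both GRfl/fl libraries (4.13 and 4.34 in lean, 5.03 and 4.51 in ob/ob). In both GR-mKO libraries Myog stood above Hdac4, at 9.11 against 5.40 in lean and 14.1 against 5.58 in ob/ob mice. In ob/ob GR-mKO mice Ncam1, at 7.06, also stood above Hdac4. Runx1 and Dach2 held the last places in every library, and their intervals overlapped in the GRfl/fl but not in the GR-mKO libraries.

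Acetylcholine receptor subunits are direct targets of the myogenic factors. The subunits examined here (Chrna1, Chrnb1, Chrnd, and Chrng) were higher in GR-mKO mice of both backgrounds. Chrne was not among them, and a part of Myog in these values was not tested. On a list of 13 genes known to be induced by denervation, 10 had enough counts between genotypes. Of these, 2 in lean mice (Sln and Chrna1) were at least 2-fold higher, against 2.19% of all genes tested, and 0 were lower, against 2.09%. In ob/ob mice 3 (Sln, Chrnd, and Chrna1) were higher, against 2.08%, and 0 were lower, against 2.87%. The list was chosen with earlier results of these data known. Chrna1, the alpha subunit, was at 18.4, 44.0, 32.5, and 74.3 CPM, with genotype ratios of 1.26 (1.08 to 1.44) in lean and 1.19 (1.06 to 1.33) in ob/ob mice. Chrnd, the delta subunit, was at 2.37, 4.18, 3.79, and 9.91 CPM, with ratios of 0.82 (0.29 to 1.36) and 1.39 (1.02 to 1.79). Both subunits thus had their highest level in ob/ob GR-mKO mice, as Myog did. Chrng, the subunit of the fetal receptor, had 1.2, 28.9, 9.0, and 31.9 expected counts, too few for the list's count. Sln, which codes for sarcolipin, an inhibitor of the calcium pump, was at 0.674, 2.66, 1.15, and 7.89 CPM, with ratios of 1.98 (1.11 to 2.95) and 2.78 (2.16 to 3.46).

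The other genes of the list differed in both directions. In lean mice 5 of the 10 had a ratio between genotypes above 0, and in ob/ob mice 8 of the 10. Chrnb1, the beta subunit, was at 29.9, 44.1, 38.9, and 49.0 CPM, with ratios of 0.56 (0.41 to 0.71) in the lean and 0.33 (0.20 to 0.47) in the ob/ob background. Ampd3, an AMP deaminase, was at 13.4, 19.0, 12.7, and 23.1 CPM, with ratios of 0.50 (0.27 to 0.72) and 0.87 (0.65 to 1.09). Both were thus higher in GR-mKO mice, under 2-fold. Musk, the receptor kinase of the neuromuscular junction, was lower in GR-mKO mice, at 14.7, 7.68, 10.8, and 8.08 CPM (ratios -0.93, -1.22 to -0.65, and -0.42, -0.72 to -0.13). Trim63, the ubiquitin ligase MuRF1, was at 267, 189, 183, and 161 CPM, also lower in GR-mKO mice. Fbxo32, the ligase atrogin-1, was at 214, 214, 144, and 232 CPM, with a ratio between genotypes of 0.00 (-0.07 to 0.06) in lean and 0.69 (0.62 to 0.75) in ob/ob mice. The median of the 10 list genes was 0.25 in lean and 0.58 in ob/ob mice, against 0.04 and -0.04 over all genes tested. Between ob/ob and lean mice, 0 of 9 were 2-fold different in GRfl/fl mice, against 2.43% of all genes higher and 4.13% lower. In GR-mKO mice 3 of 10 were higher, against 1.97% of all genes (Sln, Chrnd, and Cdkn1a, a cell cycle inhibitor at 38.4, 28.4, 44.0, and 60.7 CPM). None was lower, against 8.08%.

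The list of 8 genes of embryonic and perinatal muscle held a larger share of genes past 2-fold between genotypes than any other list used here. The lists were chosen with earlier results of these data known, so this order of lists is a description only. In lean mice, 5 of 6 with enough counts were higher in GR-mKO mice (Mymk, Actc1, Myh3, Mybph, and Myl4), against 2.19% of all genes tested. None was lower, against 2.09%. In ob/ob mice, 4 of 7 were higher (Actc1, Mymk, Myl4, and Tnnt2), against 2.08%, and 1 was lower (Myh3), against 2.87%. The medians were 1.54 and 1.02. Actc1, the cardiac actin also used by developing skeletal muscle, was at 827, 3413, 310, and 3100 CPM, or 2.04 (2.02 to 2.07) and 3.32 (3.28 to 3.36) on the log2 scale. Mymk, the membrane protein myomaker that fuses myoblasts, was at 0.482, 4.32, 1.62, and 5.25 CPM. Mymx, its partner myomixer, had 0, 9.3, 0, and 18.0 counts, so both genes of the fusion pair had more counts in each GR-mKO library. Mybph, a myosin-binding protein, was at 313, 721, 549, and 560 CPM, with a ratio of 0.03 (-0.01 to 0.07) in ob/ob mice.

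The myosin genes of this list were less uniform. Myh3, embryonic myosin, was at 1.06, 3.88, and 6.77 CPM and listed at 0 in ob/ob GR-mKO mice. Against a floor of 3 counts in that library, Myh3 was at least 47.3-fold lower there than in ob/ob GRfl/fl mice. Myh8, perinatal myosin, was at 1.75, 2.71, 5.55, and 7.62 CPM, and Myl4, an embryonic light chain, at 4.53, 9.58, 6.43, and 13.6 CPM. In ob/ob against lean mice, Myh3 and Myh8 were at least 2-fold higher in GRfl/fl mice, where Actc1 was 2-fold lower (-1.41, -1.46 to -1.37). In GR-mKO mice Myh8 was higher and Myh3 lower. Reads of myosin heavy chain and of actin genes can be split between near-identical copies that are far more abundant in adult muscle, so the values of Myh3, Myh8, and Actc1 are uncertain.

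**Figure D5:**
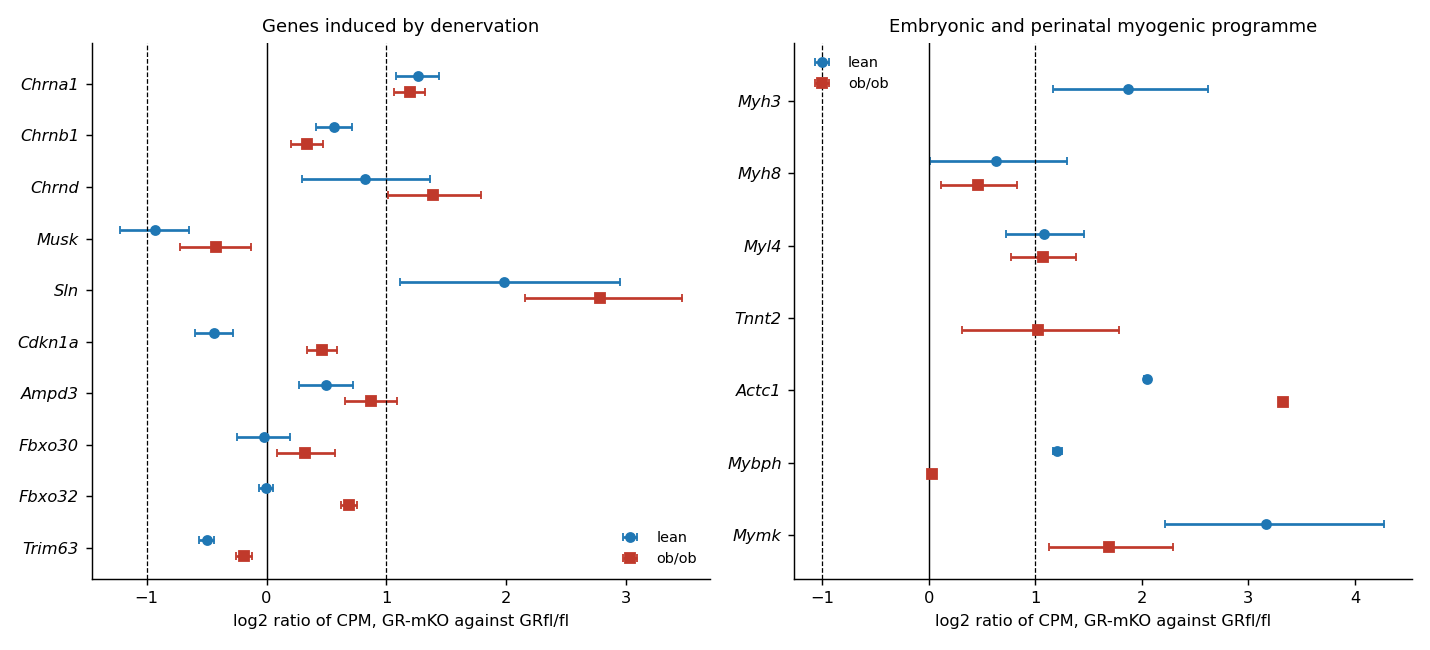
Log2 ratios of CPM between GR-mKO and GRfl/fl mice with 95% counting intervals for genes of the denervation list (left) and of the embryonic and perinatal list (right), in lean (blue) and ob/ob mice (red). Dashed lines mark 2-fold differences, and genes with under 50 counts in both libraries of a pair, and Myh3 in ob/ob mice (0 counts in 1 library), are not drawn. Chrna1 lay above 1 in both backgrounds, whereas Musk and Trim63 lay below 0.

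Partners and relatives of the 10 genes showed few differences of 2-fold, for which the shares of all genes given above are the background. Of 15 bHLH partners and inhibitors of the myogenic factors, 14 had enough counts. Tcf12, the E protein HEB, was at 39.2, 18.1, 16.9, and 18.4 CPM, more than 2-fold above the rest in the lean GRfl/fl library alone. Id1, an inhibitor of E proteins, was at 36.8, 29.7, 15.0, and 19.4 CPM, at least 2-fold lower in ob/ob than in lean GRfl/fl mice. Id2, another, was at 8.04, 10.6, 7.04, and 4.54 CPM, at least 2-fold lower in ob/ob than in lean GR-mKO mice. None of the 14 was at least 2-fold higher in any comparison, and none was 2-fold lower between genotypes in ob/ob mice. Of 8 homeobox factors and EYA cofactors, which act upstream of the myogenic factors, 0 were 2-fold different in any comparison.

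The GADD45 family did not move as one. Gadd45g was at 110, 22.3, 27.9, and 9.52 CPM, at least 2-fold lower in each of the 4 comparisons, where Gadd45a was higher in GR-mKO mice. Its genotype ratios were -2.30 (-2.45 to -2.15) in lean and -1.55 (-1.79 to -1.32) in ob/ob mice. Gadd45b was at 15.6, 21.5, 24.9, and 12.2 CPM, with a ratio of 0.46 (0.25 to 0.68) in lean and -1.03 (-1.25 to -0.81) in ob/ob mice. No other gene on the list of 6 RUNX and GADD45 relatives was 2-fold different among the 4 with enough counts. Runx2 and Runx3, the paralogs of Runx1, had under 25 counts in each library. Among 6 relatives of Ncam1 and enzymes of its polysialic acid, 4 had enough counts. St8sia4, a polysialyltransferase, was at 9.39, 13.0, 6.52, and 4.73 CPM, and L1cam at 5.41, 5.21, 3.65, and 2.40 CPM. Both were at least 2-fold lower in ob/ob than in lean GR-mKO mice, the comparison in which Ncam1 was 2.45-fold higher.

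Markers of the other cells in the muscle also differed between the libraries, and their part in the values above was not tested. The 10 leukocyte markers, led by Lyz2 (lysozyme), summed to 394, 521, 258, and 201 CPM. Of 9 with enough counts, 8 were at least 2-fold lower in ob/ob than in lean GR-mKO mice (the largest for Adgre1, Csf1r, Ptprc, Lyz2, Spi1, and Laptm5). In GRfl/fl mice 1 (Itgam) was at least 2-fold lower, and 0 of the 9 had a ratio above 0. Cd3e, a T cell marker, was at 0 in lean GRfl/fl mice, and Itgam was the 1 leukocyte marker at least 2-fold higher in ob/ob GR-mKO than in ob/ob GRfl/fl mice. The 9 endothelial markers, led by Cdh5 (VE-cadherin), summed to 608, 713, 482, and 428 CPM, and the 6 mural cell markers, led by Rgs5, to 1171, 1235, 977, and 810 CPM. Tek was the 1 gene of these 2 lists with a 2-fold difference, lower in ob/ob than in lean GR-mKO mice. The 8 fibro-adipogenic markers, led by Gsn or Col1a1, summed to 6981, 6909, 8268, and 4950 CPM. Col1a1 was at least 2-fold higher in ob/ob than in lean GRfl/fl mice, a comparison in which 2 of the 8 markers had a ratio above 0. Ly6a, Gsn, Dcn, and Lum were at least 2-fold lower in ob/ob than in lean GR-mKO mice. The 7 adipocyte markers, led by Fabp4, summed to 996, 644, 573, and 354 CPM. Lep was at least 2-fold higher and Cfd and Retn lower in ob/ob mice of both genotypes, Cidec was lower in GR-mKO mice of both backgrounds, and Lep was lower in lean GR-mKO mice. The 7 erythroid markers, led by the globin gene Hbb-bs, summed to 2230, 2128, 971, and 872 CPM, and each of the 5 with enough counts (Hbb-bs, Hbb-bt, Hba-a1, Hba-a2, and Alas2) was at least 2-fold lower in ob/ob mice of both genotypes. Between the lean libraries, the leukocyte, endothelial, and mural sums were higher in GR-mKO mice and the adipocyte and erythroid sums lower. The fibro-adipogenic sums were close (6981 and 6909 CPM), and 6 of the 8 fibro-adipogenic markers had a ratio above 0. In ob/ob mice each of the 6 sums was lower in GR-mKO than in GRfl/fl mice. The 8 fast fiber markers, led by Myh4 or Atp2a1, summed to 93567, 90329, 99851, and 110730 CPM, and none was 2-fold different in any comparison. Between ob/ob and lean mice, 3 of the 8 (Myh4, Actn3, and Atp2a1) had a ratio above 0 in each genotype. These 3 have the longest listed transcripts of the 8, from 2887 to 6016 bp. All 8 slow fiber markers lay above 0 in each genotype, Myl2 with 662 bp among them. Of the 7 skeletal muscle markers, 5 lay above 0 in each genotype, from Mb with 1104 bp to Ttn with 81843 bp. Ckm (1235 bp) and Tcap (948 bp) lay below 0 in each genotype. The part of transcript length in the ob/ob ratios was not tested. Among the slow fiber markers, led by Myl3 or Myh7, 5 in GRfl/fl and 6 in GR-mKO mice of 8 were at least 2-fold higher in ob/ob than in lean mice (Myh7, Tpm3, Tnni1, Tnnt1, and Tnnc1 in both, and Atp2a2 in GR-mKO mice). Between genotypes, 1 was so in each background, Tpm3 in lean and Atp2a2 in ob/ob mice.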

How the data were processed

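RNA-seq values of gastrocnemius muscle were used as deposited, with 1 library of 3 pooled mice in each of 4 groups. The authors quantified filtered paired-end reads against protein-coding GENCODE transcripts with Salmon 1.2.1, summarized them to genes with tximport (lengthScaledTPM) in R 3.5.0, and kept the largest of duplicated gene names. The deposited files hold expected counts of 22252 gene names, without scaling between libraries. Groups were taken from the labels, and age and pooling from the study's methods.

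Counts were scaled to CPM over all gene names (Python 3.11.15, pandas 2.3.3). Exact 95% Poisson intervals of levels and exact (Clopper-Pearson) intervals of ratios were obtained with scipy 1.17.1 after rounding the counts. They cover counting error only. Differences between ratios have approximate intervals. A gene counted as different at 2-fold with at least 50 expected counts in 1 library of the pair, and the background was all genes meeting that minimum. The NOISeq-sim method of the study was not used, since it draws simulated replicates. The ratio calculation was tested on simulated Poisson counts, the same error that the intervals assume. Such counts hold no variation between mice and no uncertainty in assigning reads, so the test checked the calculation alone. With 1 library per group there was no test across mice.

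The members and the gene lists were chosen with earlier results of these data known. Every member is given in all libraries. From each list, genes at least 2-fold different were named, up to 6 per list, with the most abundant gene of a marker list, and other genes were named after their values had been seen. Transcript lengths and positions are from GENCODE on GRCm38, in which all 22252 listed transcripts were found, and promoters from RefSeq (GRCm38.p6). Alternatives were edgeR 4.0.16 TMM and DESeq2 1.42.0 size factors (R 4.3.3, rounded expected counts, scaling only), the upper quartile, library sizes that leave out the 50 most abundant genes, CPM over the 14206 genes above 0 in all libraries, a 1.5-fold threshold, a minimum of 10 counts, and no minimum with a pseudocount of 1. Figures were drawn with matplotlib 3.10.9. Values of 3 listed genes are not reported here.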

Additional observations from a re-analysis of the deposited data

Results flagged for a closer look

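Some ratios had opposite signs, or differed, between the 2 groups in which the same contrast was made. With 1 library per group none of these differences was tested against variation between mice. Myf5 was higher in ob/ob than in lean GRfl/fl mice (0.45) and lower in GR-mKO mice (-0.47), a difference of -0.92 on the log2 scale (-1.52 to -0.32, counting error only). The same 4 values give a Myf5 difference of -0.92 between the genotype ratios in ob/ob and in lean mice. For Mef2c the genotype ratio was -0.03 in lean and 0.23 in ob/ob mice, a difference of 0.27 (0.19 to 0.34). For Dach2 the ratio between ob/ob and lean mice was 0.32 in GRfl/fl and -1.93 in GR-mKO mice, a difference of -2.26 (-3.97 to -0.54) that rests on about 4 counts in the ob/ob GR-mKO library.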

How the results depend on the processing

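No paired analysis was possible because each group had 1 library, and for the same reason no replicate could be left out. Of 200 log2 ratios of single members under 5 other scalings, 179 stayed within the counting interval, 21 moved beyond it, and 0 changed sign. With TMM factors, the counting interval changed its place against 0 for Myog and Hdac4 between ob/ob and lean GRfl/fl mice and for Runx1 and Hdac4 in GR-mKO mice (then above 0), for Myod1, Myf5, and Gadd45a in GR-mKO mice (then including 0), and for Myf6 and Mef2c between the lean genotypes (then below 0, at -0.09 and -0.08). At 1.5-fold, the number of members past the threshold was 6 between genotypes in lean mice, 5 in ob/ob mice, and 3 between ob/ob and lean GR-mKO mice, where it was 1 in each at 2-fold. A minimum of 10 counts, or no minimum with a pseudocount of 1, gave 2 in each of these comparisons, because Dach2 then entered. The median between genotypes in ob/ob mice was then 0.52 (minimum of 10) and 0.51 (pseudocount), against 0.73. The median between ob/ob and lean GR-mKO mice was 0.05. It was 0.25 with TMM factors and 0.26 with DESeq2 size factors, and it turned to -0.10 both with a minimum of 10 and with the pseudocount, since Dach2 then entered. The difference of the obesity ratios between genotypes changed sign for Hdac4 under 4 of the scalings (0.08 with TMM, 0.09 with DESeq2, 0.05 with the upper quartile, and 0.03 without the 50 most abundant genes, against -0.01), within its counting interval. Ranking by CPM instead of CPM per kb changed 24 of 40 ranks. Depth limits Dach2, Runx1, and Myf5 most.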
